A study of Mus musculus with 67 samples.

Results

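Liver mRNA of mice labelled as double knockouts of the 2 cryptochrome clock repressors was compared with that of wild-type (WT) mice, both fed without time limits. The groups were chosen by their labels: 8 libraries labelled Cry1Cry2 double KO and 12 labelled WT, all ad libitum, which together make 20 of the 67 libraries of the series. All were liver of C57BL/6 mice aged 24 weeks after 12 weeks on a high-fat diet. WT had 2 libraries at each of ZT4, 8, 12, 16, 20 and 24, where ZT (zeitgeber time) counts hours of the light-dark cycle, and the Cry1Cry2 double KO had 1 library every 3 h from ZT3 to ZT24. The labels state neither the deleted exons nor whether the loss was limited to the liver, nor that libraries of a group came from separate animals, so that p-values measure the spread between libraries. The diet was shared by all 20 libraries, and no lean or restricted-fed group enters the comparison.

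The mammalian clock is a transcription loop. BMAL1 (gene Arntl) and CLOCK bind E-box sequences and switch on the Per and Cry genes, whose proteins return to the nucleus and repress BMAL1 and CLOCK, CRY being the stronger repressor. A further loop runs through REV-ERB (Nr1d1, Nr1d2) and ROR (such as Rora), which repress and activate Arntl and Nfil3, and the loops drive output factors such as DBP, TEF and HLF that act on detoxification and lipid genes of the liver.

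Values are FPKM (fragments scaled by transcript length and by sequencing depth), as the authors deposited them. Differences are of the 24-h level, CryDKO-labelled minus WT, on the log2(FPKM + 1) scale ± SE, from 8 against 12 libraries, and adjusted p-values are limma's with Benjamini-Hochberg adjustment. "Rose" and "fell" are used for genes with an adjusted p under 0.05. Adding 1 to FPKM makes differences of low genes smaller than their ratio of FPKM.

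The libraries differed between groups in more than the label. Recovered depth was 12.2 to 28.4 M reads (median 19.8) in CryDKO-labelled libraries and 10.8 to 16.8 (median 14.3) in WT. The slope of log2 expression on GC content was -0.276 to -0.122 per 10 percentage points in the former and -0.154 to 0.333 in WT, and the FPKM of mt-Nd6 was 5.09 to 6.35% of that of mt-Nd5 against 0.55 to 3.06%. Both WT libraries at ZT16 held pancreatic transcripts, with a summed level of 11 pancreas markers of 4589 and 2891 FPKM against 24.2 to 84.9 in the other WT libraries and 38.0 to 55.2 in CryDKO-labelled ones. WT ZT16 replicate 2 also had the highest sum of FPKM, 1097495 against a WT median of 497966. Hepatocyte markers were high in both groups, with Alb at 21520 to 46150 FPKM in WT and 30860 to 50430 in CryDKO-labelled libraries, and the summed markers of skeletal muscle and kidney reached at most 0.429 FPKM.

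The targeted genes were examined first. Cry1 (GRCm38 chromosome 10, 85131700 to 85185064, minus strand) was at 1.75 to 18.8 FPKM in WT, with a median of 9.70, and at 6.65 to 10.6 in CryDKO-labelled libraries, with a median of 9.94. Its level differed by 0.18 ± 0.13 and did not pass (adjusted p = 0.249). Cry2 (chromosome 2, 92403646 to 92434043, minus strand) was at 1.35 to 8.01 FPKM in WT, with a median of 3.58, and at 2.12 to 3.56 in CryDKO-labelled libraries, with a median of 2.96, a difference of -0.30 ± 0.18 (adjusted p = 0.174). Without WT ZT16 replicate 2, which had the lowest WT value, Cry2 was lower by 0.44 (adjusted p = 0.00201). Transcripts of both genes were thus present in every CryDKO-labelled library. FPKM of a whole gene cannot show whether some of its exons were missing, and for this reason the libraries are named by their label throughout.

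Of 24 clock genes listed, 20 were expressed enough to test (a mean of 1 FPKM or more); 12 rose, 1 fell and 7 did not pass, with a median difference of 0.80, against 22.6% of all 9976 genes tested that rose, 27.5% that fell and a median of -0.05. Per1, Per2, Per3 and Ciart, which encodes the repressor CHRONO, rose, and Cry1 and Cry2, the other tested genes of the repressor arm, did not pass. Nr1d1, Nr1d2 and Rora rose as well. Correcting for GC content and gene length left 12 clock genes raised and 2 lower. These 2 were Clock (-0.333, adjusted p = 0.000612) and Btrc (-0.197, adjusted p = 0.043). Neither passed without the correction, with differences of 0.06 and 0.10.

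Per3, a period gene, was at 0.0748 to 4.68 FPKM in WT (median 0.616) and at 2.96 to 4.61 in CryDKO-labelled libraries (median 3.79), a difference of 1.25 ± 0.16 (adjusted p = 1.39e-05). Ciart was at 0.0353 to 9.85 FPKM in WT (median 1.29) and at 7.50 to 13.1 (median 9.78), a difference of 2.03 ± 0.22 (adjusted p = 2.17e-06). For both genes every CryDKO-labelled value lay above the WT median, and the Ciart values at ZT12, 15 and 18 lay above the highest of WT. Per1 and Per2 differed less, by 0.66 ± 0.16 (adjusted p = 0.00258) and 0.77 ± 0.18 (adjusted p = 0.00202). Per2 reached 12.8 FPKM in WT at ZT12 and 12.4 in the CryDKO-labelled library at ZT18, while its lowest value was 1.29 in WT and 6.38 in CryDKO-labelled libraries.

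Nr1d1, which encodes REV-ERB alpha, a repressor of Arntl, ran from 0.165 FPKM to 33.3 in WT, with a median of 3.16 and the highest values at ZT8. In CryDKO-labelled libraries it stayed between 8.41 and 15.4 FPKM, with a median of 12.7. These values fall inside the WT range, below its peak and far above its trough. The level rose by 1.43 ± 0.18 (adjusted p = 1.22e-05). Nr1d2, its paralog, rose by 1.45 ± 0.22, from a WT median of 8.28 FPKM to 21.5. Rora, an activator at the same element, moved the same way, with a median of 2.87 FPKM in WT and 6.05 in CryDKO-labelled libraries (0.83 ± 0.17, adjusted p = 0.000811).

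Dbp, Tef and Hlf, the output factors, rose. Dbp, the first of the PAR bZIP activators, was at 0.542 to 56.1 FPKM in WT (median 2.91) and at 27.1 to 40.3 in CryDKO-labelled libraries (median 31.7), the widest clock difference at 2.43 ± 0.36 (adjusted p = 6.22e-05). Tef rose by 1.15 ± 0.20. Hlf, the third member, was at 3.03 to 11.6 FPKM in WT and at 13.5 to 16.4 in CryDKO-labelled libraries, and it was the only clock gene tested whose groups did not overlap, a pattern seen upward in 4.56% of all genes tested and downward in 4.68%. Bhlhe40, encoding the E-box repressor DEC1, rose by 0.93 ± 0.22.

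Arntl and Nfil3, the genes on which REV-ERB and ROR act, did not rise. Arntl was at 0.552 to 11.7 FPKM in WT (median 6.93) and at 3.35 to 5.52 in CryDKO-labelled libraries (median 5.08), so that the latter lay in the middle of the WT range, with a level difference of 0.08 ± 0.21 (adjusted p = 0.75). Nfil3, a repressor that competes with DBP, was the clock gene that fell. Its WT values ran from 5.86 to 49.7 FPKM (median 27.0) and its CryDKO-labelled values from 10.4 to 16.4 (median 11.4), a difference of -0.83 ± 0.22 (adjusted p = 0.00623) that was -0.39 and did not pass after GC and length correction (adjusted p = 0.125). Npas2, a paralog of Clock, was under the filter: it was listed at 0 in all 8 CryDKO-labelled libraries and at 0 to 3.22 FPKM in WT. Bhlhe41, encoding DEC2, was also under it, at 1.04 to 1.72 FPKM in CryDKO-labelled libraries and 0.0266 to 0.909 in WT. Csnk1d and Btrc, which act on PER stability, did not pass before GC and length correction, with differences of 0.07 and 0.10. Exons of Arntl, Cry2, Ciart, Nr1d1, Rora, Dbp, Tef, Bhlhe40, Csnk1d and Btrc overlap an annotated gene on the opposite strand. Genes given further on, such as Me1, Fitm1, Pparg, Cdkn1a and Wee1, have such an overlap too. How strands were treated in the counting is not given, and reads of such pairs cannot be told apart.

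**Figure D1:**
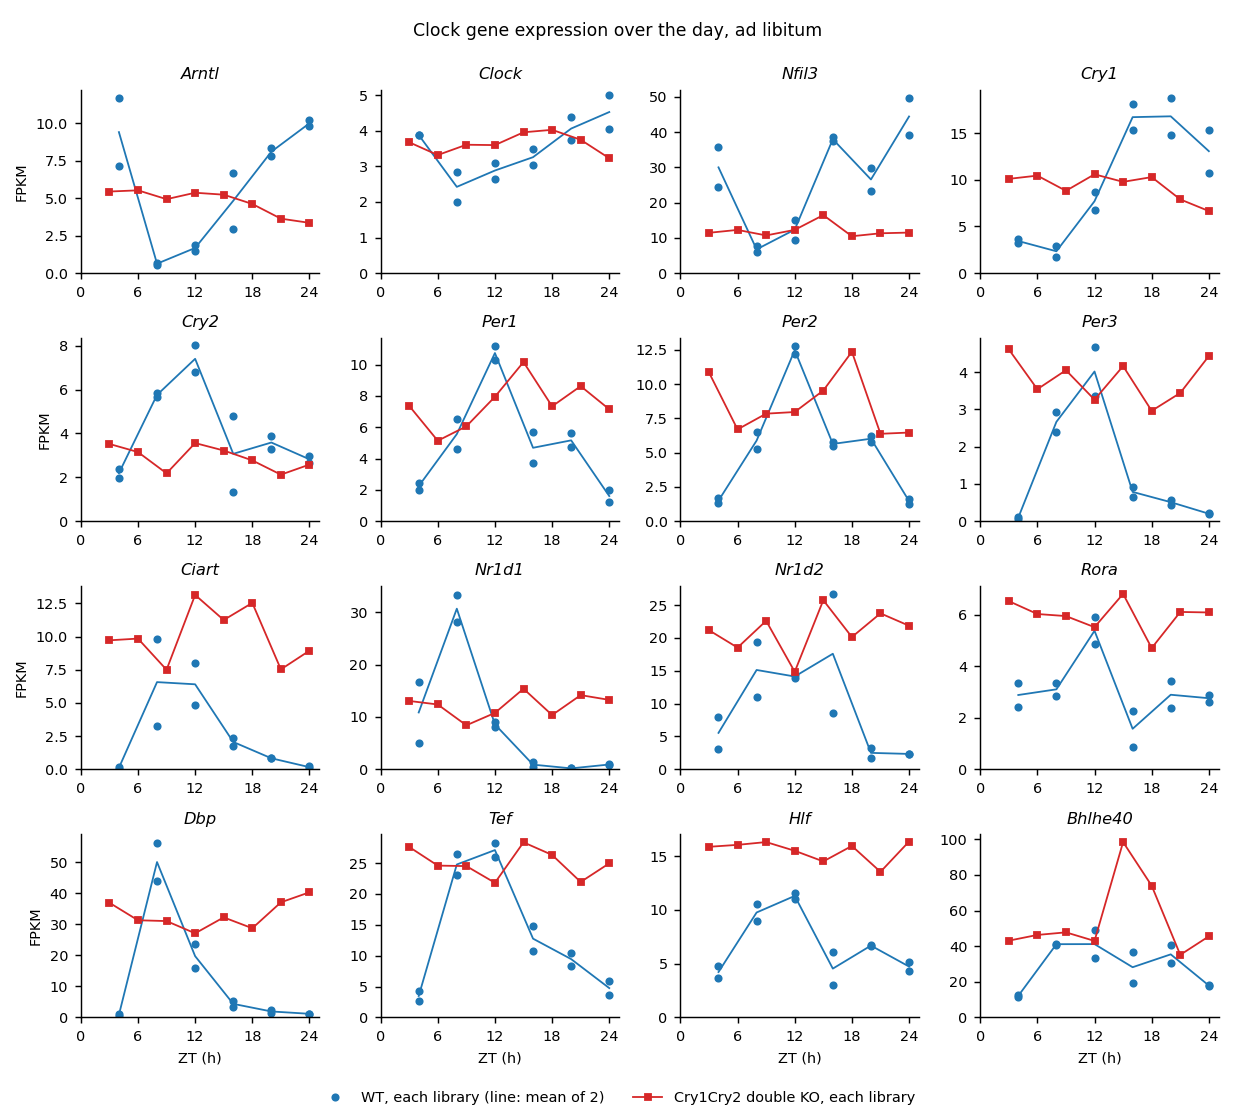
FPKM of 16 clock genes against ZT in hours, with each WT library as a blue point, the mean of the 2 WT libraries per time as a blue line, and the single CryDKO-labelled library per time in red. WT values of Nr1d1 swing from 0.165 to 33.3 FPKM while the red line stays between 8.41 and 15.4, and Hlf is the gene whose red points all lie above the blue ones.

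Promoters of the clock genes that changed are shown because BMAL1 and CLOCK, which CRY represses, act through E-boxes. The 250 bases before the start of 14 clock genes that passed in level or rhythm were looked up in RefSeq (build GRCm38.p6), and 11 genes matched. The E-box CACGTG, read on both strands, which are alike for this palindrome, was present in a window of 4 of the 11 genes. By window it was present in 6.02% of all 32851 promoter windows of the same length. The 11 genes had 13 windows, so the count by gene and the share by window are not like measures. The sequences below are on the strand of the gene, 5′ to 3′, and the E-boxes are in capitals. Ciart held 3 and each of the others 1.
Ciart, chr3:95882229-95882478, minus strand: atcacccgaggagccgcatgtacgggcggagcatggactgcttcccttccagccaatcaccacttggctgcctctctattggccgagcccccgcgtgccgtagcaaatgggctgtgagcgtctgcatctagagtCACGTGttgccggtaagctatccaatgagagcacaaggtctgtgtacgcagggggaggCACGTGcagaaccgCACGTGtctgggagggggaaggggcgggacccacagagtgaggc
Cry1, chr10:85185055-85185304, minus strand: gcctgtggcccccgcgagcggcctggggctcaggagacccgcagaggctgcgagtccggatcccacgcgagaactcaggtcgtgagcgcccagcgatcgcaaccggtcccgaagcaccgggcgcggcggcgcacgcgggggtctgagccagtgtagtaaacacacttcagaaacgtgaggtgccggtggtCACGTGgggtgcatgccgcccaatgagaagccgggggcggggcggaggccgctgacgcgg
Per1, chr11:69098699-69098948, plus strand: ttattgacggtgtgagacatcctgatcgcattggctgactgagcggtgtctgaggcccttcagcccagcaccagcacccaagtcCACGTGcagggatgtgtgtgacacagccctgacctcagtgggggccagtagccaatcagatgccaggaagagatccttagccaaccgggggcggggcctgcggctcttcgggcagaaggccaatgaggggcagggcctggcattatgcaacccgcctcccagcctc
Tef, chr15:81811164-81811413, plus strand: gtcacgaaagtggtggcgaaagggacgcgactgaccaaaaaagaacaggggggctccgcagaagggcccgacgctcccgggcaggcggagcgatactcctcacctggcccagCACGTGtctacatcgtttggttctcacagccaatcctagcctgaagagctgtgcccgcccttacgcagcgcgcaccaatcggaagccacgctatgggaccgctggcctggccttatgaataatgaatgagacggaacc

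Of these 4 genes, Ciart, Per1 and Tef rose and Cry1 passed in the rhythm difference and not in level. Tef had a further window, at another start, with 1 E-box, and Per1 a further window without any. The windows of Dbp, Hlf, Nfil3, Nr1d1, Nr1d2, Per3 and Rora held no E-box. The DBP site TTATGTAA was present in the Per3 window, as it was in 0.82% of all windows, and the REV-ERB and ROR binding core TAGGTCA in the Nfil3 window, as in 2.23%, both motifs read on either strand. Letters that were not found in these windows may lie elsewhere in a gene.

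Rhythms were tested as a cosine and sine of ZT with a period of 24 h. In WT, 936 genes (9.38%) passed. In CryDKO-labelled libraries 0 (0.0%) passed with limma at an adjusted p under 0.05, 301 were under 0.05 unadjusted, and limma voom on recovered reads also gave 0. With limma's library weights, however, 773 genes passed in CryDKO-labelled libraries, 4511 in WT and 2574 for the difference, so that these counts depend on how libraries are weighted. This does not by itself show that the groups differ, since WT had 12 libraries and the other group 8, and the test of the difference in cosine and sine was passed by 14 genes (0.14%). Leaving out WT ZT16 replicate 2 raised the difference count to 139, with the same 14 among them, and the WT count to 3583.

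Among the clock genes, 14 of 20 passed for rhythm in WT and 3 passed for the difference, Nr1d1 and Cry1 among them. Nr1d1 had an amplitude (the height of the fitted curve above its mean, in log2 units) of 2.38 ± 0.16 in WT, peaking at ZT 7.9. In CryDKO-labelled libraries it was 0.18 ± 0.20 (adjusted p = 0.000754 for the difference). Cry1 had 1.31 ± 0.11 with a peak at ZT 18.9, against 0.17 ± 0.14 (adjusted p = 0.00416). The ± printed with an amplitude is the SE of the cosine term alone, not of the amplitude itself, which cannot be negative. Every one of the 20 clock genes had its lower amplitude in CryDKO-labelled libraries. That direction was not particular to the clock, since the median amplitude over all genes tested was 0.26 in WT and 0.11 in CryDKO-labelled libraries. Dbp, with 2.16 and 0.22, missed the threshold for the difference (adjusted p = 0.125), as did Arntl, with 1.33 and 0.23 (adjusted p = 0.0724). Without WT ZT16 replicate 2, 8 clock genes passed for the difference, Arntl among them (adjusted p = 0.0335).

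Outside the clock list the genes of smallest p for the difference included Clpx, a mitochondrial protease subunit, Por, the electron donor of all microsomal cytochromes P450, and Ppp1r1b, Dtx4 and Mad2l2. Clpx was at 17.1 to 25.8 FPKM in WT at ZT8 and ZT12 and at 128 and 130 at ZT24, whereas CryDKO-labelled libraries held 45.8 to 61.7. Its amplitude was 1.36 ± 0.11 and 0.15 ± 0.13 (adjusted p = 0.00222) and its level did not pass (-0.03, adjusted p = 0.85). Por swung between 12.8 and 196 FPKM in WT, with 181 and 196 in the ZT12 libraries, and stayed at 64.1 to 113 in CryDKO-labelled libraries, with amplitudes of 1.53 and 0.24 (adjusted p = 0.00408). Its level rose by 0.88 ± 0.16.

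Over the 936 genes that were rhythmic in WT, the median amplitude was 0.48 in WT and 0.15 in CryDKO-labelled libraries, and 924 had the lower value in the latter. These genes were picked for their WT rhythm, which favours that direction. Over all genes tested the medians were 0.26 and 0.11. Of the 936, 211 (22.5%) rose in level and 269 (28.7%) fell, shares close to those of all genes tested.

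**Figure D2:**
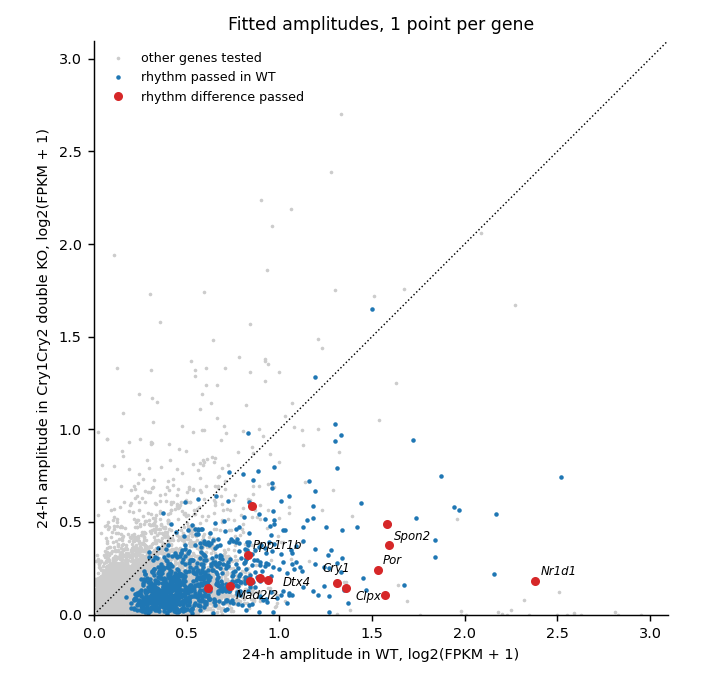
Fitted 24-h amplitude in log2(FPKM + 1) in WT on the horizontal axis and in CryDKO-labelled libraries on the vertical axis, 1 point per gene tested, with equal amplitudes on the dotted line. Blue marks the 936 genes rhythmic in WT and red the 14 that passed for the difference, all below the line, with Nr1d1 at 2.38 and 0.18 and Pdk1 nearest to the line at 0.85 and 0.59.

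Levels differed widely. Of 9976 genes tested, 4994 (50.1%) passed, 2254 up and 2740 down, and 172 rose and 405 fell by at least 2-fold. After correction for GC content and length 3031 kept their direction and call, 1420 up and 1611 down. Scaling all libraries to the same sum of FPKM moved the median of all genes from -0.05 to 0.16 and the share of calls that were higher from 45.1% to 65.2%. With calls in so many genes, counts in gene lists are read beside the background shares. After GC and length correction these were 23.0% up and 22.9% down of 9598 genes, and with the same sum of FPKM 33.5% and 17.8%. Without the CryDKO-labelled libraries at ZT12, 18 and 21, in which Mup17 was high, they were 14.1% and 16.1%. Without both WT libraries at ZT16 they were 24.4% and 30.5%, and without 4 WT libraries of low Moxd1 22.5% and 29.0%. Up to 4 passing members of each list were named by the size of their difference, and further members were named after their values were seen. In liver tissue, fewer cells of a type and less RNA per cell cannot be told apart.

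Of the 10 genes raised most by the naming rule, 5 were cytochromes P450. Cyp3a11, a main drug-metabolising enzyme of mouse liver, was at 23.6 to 256 FPKM in WT (median 67.8) and at 274 to 870 in CryDKO-labelled libraries (median 634). The groups did not overlap, and the difference was 2.98 ± 0.34 (adjusted p = 4.8e-06). Cyp2c54 likewise did not overlap, at 30.5 to 123 FPKM in WT and 233 to 408 in CryDKO-labelled libraries (2.23 ± 0.16). Cyp4a12a, a fatty acid hydroxylase of male liver, had medians of 42.7 and 188 FPKM and rose by 2.29 ± 0.22, again without overlap. Cyp2b9 had the greatest rise, 4.21 ± 0.76 (adjusted p = 0.000339), with 31.3 to 169 FPKM in CryDKO-labelled libraries and a WT median of 0.965. One WT library, ZT8 replicate 1, held 163 FPKM of it. Cyp2c39 was at 0.990 and 1.70 FPKM in the CryDKO-labelled libraries at ZT3 and ZT24, at 24.8 to 118 in the other 6, and at no more than 1.64 in WT (3.55 ± 0.50).

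Raised genes outside this family included Pcp4l1, a small calmodulin-binding protein, at 12.6 to 62.9 FPKM against 2.13 to 9.41 in WT (2.81 ± 0.22), and the desmosomal cadherin Dsg1c, at 8.54 to 19.4 against 1.03 to 5.43 (2.21 ± 0.18). Nup62cl was at 3.56 to 8.68 FPKM in CryDKO-labelled libraries and at most 0.378 in WT (2.65 ± 0.10, adjusted p = 4.84e-12), and none of these 3 overlapped. The short gene segments mt-Tp and Igkj2 also met the rule. Ugt1a9, a bilirubin-family glucuronosyltransferase that shares exons with the other Ugt1a genes, rose from a median of 2.84 to 29.9 FPKM, and its reads may be divided among copies.

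The greatest falls were in Fam25c and Nnmt. Fam25c was at 23.4 to 332 FPKM in WT and at 0 to 1.27 in CryDKO-labelled libraries (-6.07 ± 0.32, adjusted p = 3.47e-10). Nnmt, which methylates nicotinamide and so consumes the methyl donor SAM, was at 82.1 to 1368 FPKM in WT (median 210) and at 0.361 to 37.6 in CryDKO-labelled libraries (median 1.70), a fall of 5.68 ± 0.43 on the log2 scale (adjusted p = 5.25e-08). For neither gene did the groups overlap, and Nnmt was highest in the CryDKO-labelled libraries of ZT18 and ZT21, at 19.3 and 37.6 FPKM. Mfsd2a, a transporter of lysophospholipids, fell from a median of 60.7 to 2.30 FPKM (-3.78 ± 0.30) and Hspa8, the constitutive HSC70 chaperone, from 53.7 to 6.57 (-3.05 ± 0.35), both without overlap. Serpina12, the adipokine vaspin, fell by 3.19 ± 0.45 and overlapped.

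Hba-a2 met the rule for falls too but stands for a pair of near-identical alpha globin genes. Hba-a2 was at 10.8 to 305 FPKM in WT and at 0 to 0.684 in CryDKO-labelled libraries (-5.38 ± 0.41), while Hba-a1 went the other way, from a median of 61.0 to 257 FPKM (1.96 ± 0.44). The sum of both was 23.9 to 680 FPKM in WT (median 110) and 79.1 to 403 in CryDKO-labelled libraries (median 257), so that the groups overlapped. Of 6 erythroid markers 5 were tested, with 2 higher and 1 lower, and their summed level was 148 to 3085 FPKM in WT and 357 to 1819 in CryDKO-labelled libraries. The part of counting between copies, or of residual blood, was not tested.

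**Figure D3:**
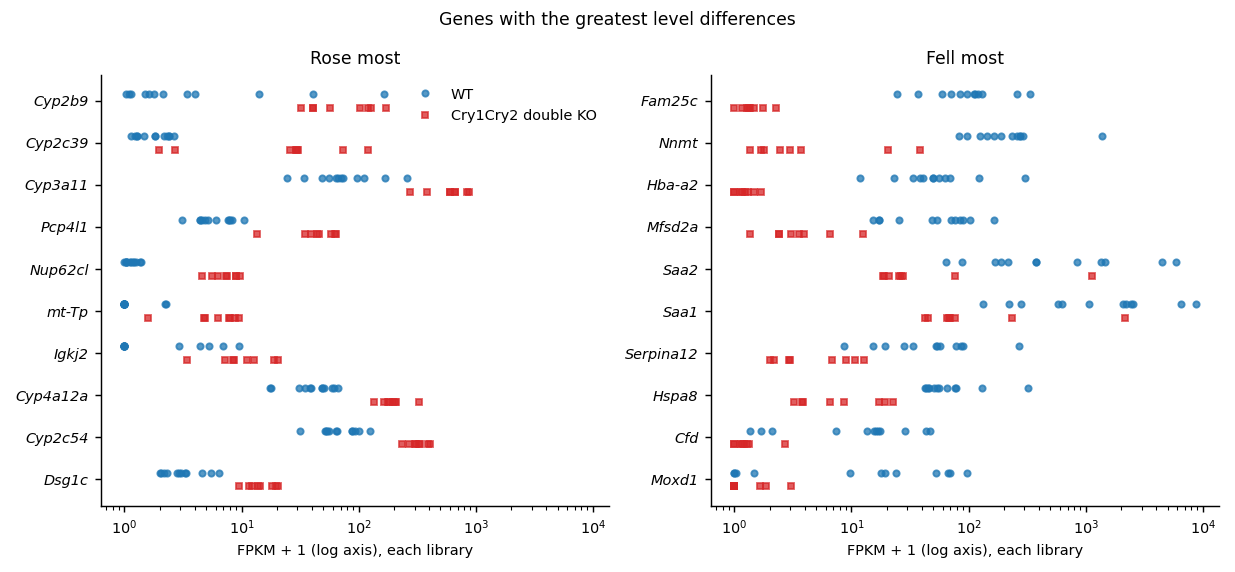
FPKM + 1 on a log axis in each library for the 10 genes that rose most (left) and the 10 that fell most (right) by the naming rule, WT in blue and CryDKO-labelled libraries in red. Cyp3a11, Nup62cl, Fam25c and Nnmt are separated between groups, whereas Cyp2b9, Saa1 and Moxd1 have libraries of 1 group among those of the other.

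Of 32 tested genes of xenobiotic metabolism, 15 rose and 6 fell, with a median of 0.36, and after GC and length correction 19 rose and 4 fell. Of 17 cytochromes and their regulators, 9 rose: besides those above, Cyp2c50 went from a median of 113 to 326 FPKM without overlap (1.51 ± 0.14), and Nr1i3, the nuclear receptor CAR, rose by 0.67 ± 0.20. Nr1i2, the receptor PXR that regulates Cyp3a11, fell by 0.29 ± 0.10, a call lost after the same correction (0.04) and without the CryDKO-labelled library at ZT6 or ZT21 (adjusted p up to 0.0553). Cyp2a5 went against the list, from a median of 141 to 27.4 FPKM (adjusted p = 4.8e-05), as did the glutathione transferases Gstp1 (-1.39 ± 0.31) and Gstm2 (-1.26 ± 0.20), while Gsta2 rose by 1.65 ± 0.30.

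Among bile acid genes 7 of 17 rose and 1 fell, against 22.6% and 27.5% of all genes. After GC and length correction 4 rose, a share near that of all genes. Without the 3 CryDKO-labelled libraries of high Mup17 3 rose, where 14.1% of all genes rose. Cyp7a1, the first and limiting step of bile acid synthesis, was at 8.85 to 87.4 FPKM in WT (median 33.5) and at 27.7 to 86.8 in CryDKO-labelled libraries (median 65.1), with full overlap (0.82 ± 0.29, adjusted p = 0.0287), and the call was lost after GC and length correction (adjusted p = 0.0671) and on leaving out any of 6 single libraries (adjusted p up to 0.0751, without CryDKO-labelled ZT21). Slc27a5 (0.39 ± 0.08) and Akr1d1 (0.58 ± 0.17), later enzymes of the pathway, rose with and without the correction. Nr1h4, the bile acid receptor FXR, fell by 0.60 ± 0.14.

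Among genes with a sex bias in liver, libraries of 1 group differed from each other. Of 12 tested female-biased genes 6 rose, with a median of 0.71; 11 further members were under the filter. Beside Cyp2b9, Cyp2c40 rose from a median of 0.398 to 3.03 FPKM (1.39 ± 0.26) and Cyp2c69 from 0.325 to 2.71 (1.36 ± 0.24). Of 23 male-biased genes 3 rose, among them Cyp4a12a, and 5 fell, where 22.6% of all genes rose and 27.5% fell. Among the 5, Mup17 lost its call on leaving out any of 13 single libraries (adjusted p up to 0.119). Cyp4a12b lost it on leaving out any of 15 (up to 0.0882). Slco1a1, among the 3 that rose, lost its call on leaving out any of 4 (up to 0.0602). Mup17 and Slco1a1 also did not pass after GC and length correction (adjusted p = 0.0591 and 0.0793). Mup20, a pheromone-carrying major urinary protein, fell by 1.69 ± 0.48, and Ugt2b38 fell from 0.193 to 25.6 FPKM in WT to at most 0.138 (-2.42 ± 0.50). The Mup and Ugt2b genes have near-identical copies, and their split is uncertain.

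Mup17 showed the spread within the CryDKO-labelled group: it was at 851, 2195 and 3721 FPKM at ZT12, 18 and 21 and at 20.4 to 71.4 at the other 5 times, against 8.72 to 6668 in WT. Moxd1, another male-biased gene, was below 1 FPKM in 4 WT libraries (ZT8, 12 and 16 replicate 1 and ZT20 replicate 2) and at 8.70 to 95.8 in the other 8, and at 0 to 2.02 in CryDKO-labelled libraries, where the 3 values above 0 were those at ZT12, 18 and 21. The WT library at ZT8 replicate 1 had the lowest Mup17 and Slco1a1 (8.72 and 3.51 FPKM) and the highest Cyp2b9 of WT. The labels give no sex or other property that differs between these libraries. Leaving out the 3 CryDKO-labelled libraries lowered the count of genes past the threshold in level to 3014, and leaving out the 4 WT libraries gave 5138. Without those 4, 11 of the 12 female-biased genes rose, and 14 of the 23 male-biased genes fell and 3 rose. Of all genes tested 22.5% rose and 29.0% fell in that setting. The 4 were picked by the level of Moxd1, a member of the male-biased list, so that these counts are a description only.

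**Figure D4:**
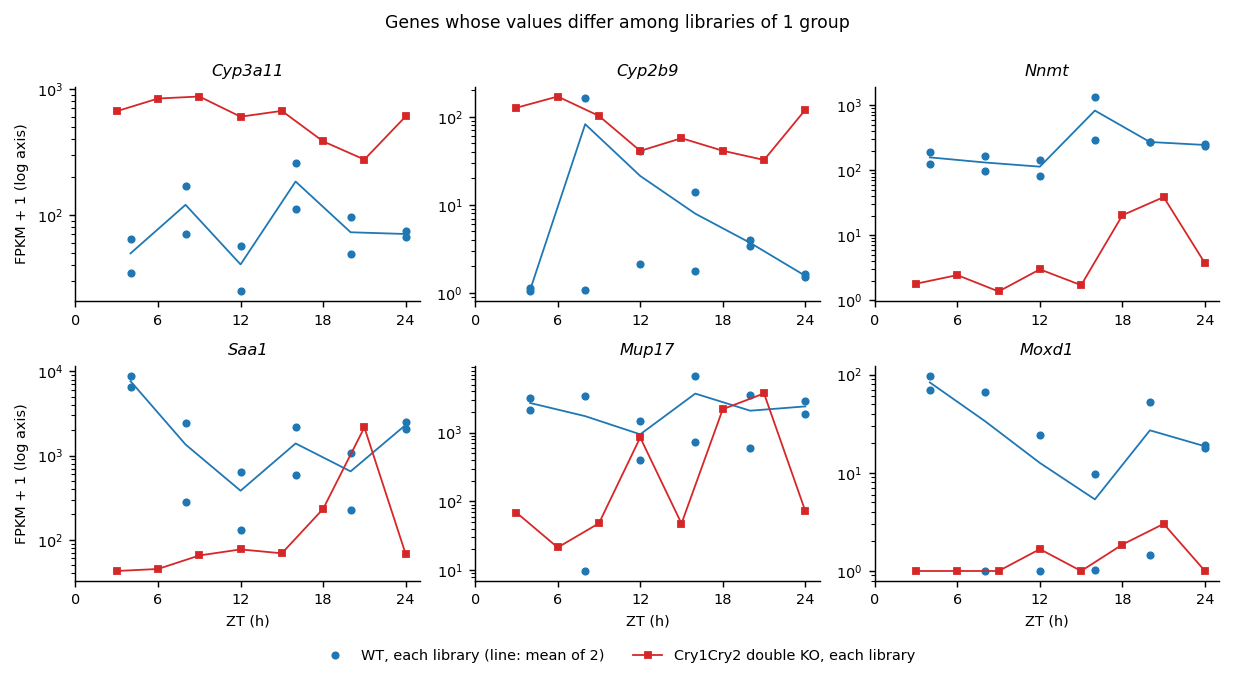
FPKM + 1 on a log axis against ZT in hours for 6 genes, each library as a point, WT in blue with a line through the means and CryDKO-labelled libraries in red. Cyp3a11 and Nnmt are apart between groups at all times, while Mup17 and Saa1 reach 3721 and 2161 FPKM in the red library at ZT21 and Moxd1 is below 1 FPKM in 4 blue ones.

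Of 12 tested lipid droplet proteins and lipases 9 fell, with a median of -0.65, and 3 did not pass. After GC and length correction 5 fell and 2 rose, where 22.9% of all genes fell and 23.0% rose. Without the 3 CryDKO-labelled libraries of high Mup17 4 fell, where 16.1% of all genes fell. Fitm1, which takes part in droplet formation, was at 21.5 to 170 FPKM in WT (median 60.9) and at 2.04 to 15.1 in CryDKO-labelled libraries (median 7.25), without overlap (-2.97 ± 0.22, adjusted p = 4.08e-08). Cidec, which fuses droplets and is a marker of fatty liver, fell from a median of 2.47 to 0.431 FPKM (-1.78 ± 0.47), Plin4 from a median of 2.45 to 0.385 FPKM (adjusted p = 0.0024) and Plin5 by 0.72 ± 0.14. Pparg, their regulator, fell by 1.14 ± 0.27 and Fabp1, the abundant fatty acid binding protein, from a median of 10860 to 6384 FPKM (-0.99 ± 0.18). Apob, the protein of secreted lipoproteins, rose by 1.05 ± 0.29. Cfd and Fabp4, the 2 adipocyte markers tested, were also lower, at -3.05 ± 0.43 and -0.93 ± 0.22, with the summed level of 6 adipocyte markers at 2.85 to 62.5 FPKM in WT and 1.66 to 3.73 in CryDKO-labelled libraries; Adipoq, Plin1, Retn and Lep were at most 0.258 in every library.

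Of 17 fatty acid synthesis genes 4 fell and 0 rose. After GC and length correction 7 fell and 1 rose, and 8 fell without both WT libraries at ZT16, where 30.5% of all genes fell. Me1, malic enzyme, which supplies NADPH, fell from a median of 15.8 to 1.74 FPKM (-2.62 ± 0.32, adjusted p = 9.83e-06). Thrsp, a lipogenic regulator, fell by 1.24 ± 0.33, and Fasn (0.18), Acaca (-0.07), Scd1 (-1.03) and Srebf1 (-0.05) did not pass. Of 25 cholesterol synthesis genes 2 rose and 3 fell. In fatty acid oxidation 4 of 26 rose and 4 fell. The PPAR alpha targets Cyp4a10 (1.47 ± 0.56), Cyp4a31 (1.18 ± 0.14), Ehhadh (0.87 ± 0.14) and Pdk4 (0.85 ± 0.23) rose, and the secreted targets Fgf21 (-1.69 ± 0.37) and Angptl4 (-1.30 ± 0.20) fell, as did Acadm. Ppara itself did not pass (0.21), and Cyp4a10 lost its call on leaving out any of 11 single libraries (adjusted p up to 0.087, without CryDKO-labelled ZT24).

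In glucose metabolism 6 of 19 genes rose and 6 fell, and 3 and 2 without the 3 CryDKO-labelled libraries of high Mup17. In that setting 14.1% of all genes rose and 16.1% fell. Pck1, the gluconeogenic PEPCK, fell from a median of 468 to 290 FPKM (-0.92 ± 0.19). The insulin receptor Insr rose from 6.92 to 15.7 (0.97 ± 0.22), as did the glycogen-targeting subunit Ppp1r3b (0.68 ± 0.17). G6pc did not pass (-0.28).

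Nr3c1, the glucocorticoid receptor, was at 6.87 to 12.1 FPKM in WT and 15.8 to 20.1 in CryDKO-labelled libraries, without overlap (0.89 ± 0.09, adjusted p = 1.26e-06). Of 18 genes in the glucocorticoid list 8 fell and 2 rose, Nr3c1 being 1 of the 2, and 8 did not pass. After GC and length correction 5 fell and 3 rose. Cdkn1a, the cell cycle inhibitor p21, which is also a p53 target, was at 3.25 to 47.2 FPKM in WT and at 0.462 to 1.28 in CryDKO-labelled libraries (-3.20 ± 0.27, adjusted p = 1.78e-07), without overlap. Lcn2 fell by 2.42 ± 0.41 and Ddit4 by 1.25 ± 0.22, and Tsc22d3 by 0.80 ± 0.26, while Fkbp5 (0.26) and Sgk1 (0.10) did not pass. With libraries scaled to the same sum the list stood at 5 up and 5 down, 27.8% each, against 33.5% up and 17.8% down of all genes. Of 14 cell cycle and DNA damage genes 7 fell and 2 rose; Wee1, a mitotic kinase gene with E-boxes known as a clock target, rose from a median of 2.31 to 8.57 FPKM (1.60 ± 0.17).

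Of 23 acute phase genes tested 11 fell and 12 did not pass, with a median of -0.57, and 9 fell after GC and length correction. Saa1, serum amyloid A, was at 131 to 8805 FPKM in WT (median 1581) and at 41.6 to 2161 in CryDKO-labelled libraries (median 67.5), a difference of -3.38 ± 0.67 (adjusted p = 0.000692). The highest of the latter was the library at ZT21, and the next was at 232. Orm2 fell by 2.08 ± 0.39 and Hp, haptoglobin, from a median of 5164 to 2510 FPKM (-0.94 ± 0.21), whereas the fibrinogen genes Fga (0.06), Fgb (0.11) and Fgg (-0.15) did not pass. Saa1, Saa2 and the Orm genes have close copies. Immune cell markers were lower in part: of 14 tested 6 fell and 1, the Kupffer cell marker Timd4, rose. After GC and length correction 4 fell and 2 rose, and their median went from -0.235 to 0.267. Cd74, H2-Aa and H2-Ab1, the MHC class II genes, were down by 0.99 ± 0.13, 1.05 ± 0.17 and 1.24 ± 0.19 before it. The Kupffer cell markers Clec4f (0.09) and Vsig4 (0.10) did not pass. The summed level of 20 immune markers was 326 to 1240 FPKM in WT and 285 to 462 in CryDKO-labelled libraries, and its part in the acute phase values was not tested.

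Of 15 tested heat shock and cold-inducible genes 7 fell and 2 rose, and after GC and length correction 8 fell and 2 rose; beside Hspa8, Hspb1 went from a median of 11.8 to 2.23 FPKM (-1.67 ± 0.16), Dnajb1 from 21.9 to 8.15 (-1.09 ± 0.22) and Bag3 from 18.1 to 9.21 (-0.90 ± 0.17), while Hspd1, the mitochondrial HSP60, and Cirbp, induced by cold, rose by 0.64 ± 0.14 and 0.48 ± 0.16, the latter call being lost without CryDKO-labelled ZT24 (adjusted p = 0.0501). Of 21 ER stress and amino acid response genes 11 fell and 1 rose, with Creld2 (-1.45 ± 0.42) and Herpud1 (-1.08 ± 0.24) among them. After GC and length correction 5 of the 20 with a value fell, 25.0% against 22.9% of all genes. Without the 3 CryDKO-labelled libraries of high Mup17 5 of 21 fell, 23.8% against 16.1% of all genes. In the Nrf2 list 4 of 11 rose and 3 fell. Of 22 interferon genes 10 rose and 7 fell, but 9 and 2 after GC and length correction, 4 and 6 without the 4 WT libraries of low Moxd1, and 2 and 7 without the 3 CryDKO-labelled libraries of high Mup17. In the last setting 14.1% of all genes rose and 16.1% fell. Rsad2 (0.73 ± 0.13) and Ifi44 (0.86 ± 0.14) rose and the immunoproteasome genes Psmb8 (-1.19 ± 0.18) and Psmb9 (-1.23 ± 0.22) fell without overlap.

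Amino acid and NAD genes moved in both directions. Of 22 urea cycle and amino acid genes 11 fell and 3 rose, but with libraries scaled to the same sum 5 fell and 6 rose. These were 22.7% and 27.3%, against 17.8% down and 33.5% up of all genes on that scale. Cps1, the entry enzyme of the urea cycle, rose from a median of 366 to 937 FPKM (1.18 ± 0.15, adjusted p = 1.03e-05), while Oat, ornithine aminotransferase of pericentral cells, fell from 513 to 217 without overlap (-1.16 ± 0.15). In the NAD list 5 of 15 rose and 7 fell, and 6 and 2 on the same-sum scale; Sirt1 rose without overlap (0.66 ± 0.08), and Haao, a step of NAD synthesis from tryptophan, fell without overlap (-1.13 ± 0.19).

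Of 7 mitochondrially encoded genes tested 3 rose, and 7 on the same-sum scale, where 33.5% of all genes rose. The greatest was mt-Nd6, the only protein gene on the other strand of the mitochondrial genome, at 96.3 to 170 FPKM in CryDKO-labelled libraries and 6.46 to 57.8 in WT (2.83 ± 0.26), against 0.49 ± 0.20 for mt-Nd5, which overlaps it only at the ends of both genes and whose call was lost on leaving out any of 13 single libraries (adjusted p up to 0.126, without CryDKO-labelled ZT12). mt-Co2, mt-Atp8 and mt-Nd4l were listed at 0 in all 20 libraries. The part of how strands were kept or counted in this difference was not tested, and 3077 of 6161 genes without an annotated overlap on the opposite strand passed in level.

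**Figure D5:**
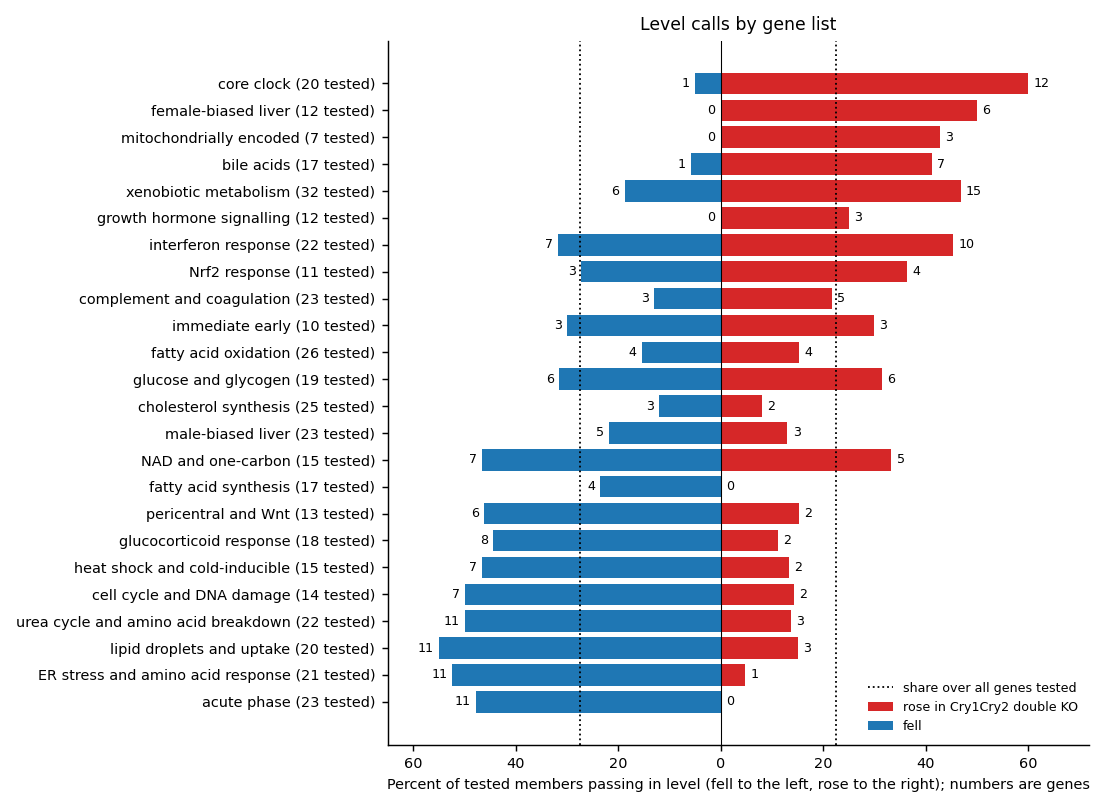
Percent of tested members of each of 24 gene lists that rose (red, to the right) or fell (blue, to the left), with the number of genes at the bar ends and dotted lines at the shares over all genes tested, 22.6% and 27.5%. The clock list has 12 of 20 raised, and the lists of acute phase, ER stress, lipid droplets, and urea cycle and amino acids have 11 fallen each.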

How the data were processed

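The deposited table gives the authors' FPKM for 45808 rows of gene symbols. The submitters' processing notes name STAR, featureCounts, DESeq2 and build GRCm38, without versions, and the strand setting of the counting is not given in the sources used here. Groups were taken from the labels. Values were analysed as log2(FPKM + 1) for 9976 genes whose mean over the 20 libraries reached 1 FPKM, in 1 limma 3.58.1 fit (R 4.3.3) with a level, cosine and sine of ZT (period 24 h) per group. Genes passed at an adjusted p under 0.05 (Benjamini-Hochberg over all genes tested). Depth came from the step that 1 read makes in FPKM: with a tolerance of 0.1 reads, 84.1 to 87.7% of values up to 20 reads were whole. Limma voom tested 6289 genes on such recovered reads. Overlap, length and GC content came from GENCODE, which matched 41893 rows by symbol; GC and length were corrected with splines of 5 degrees of freedom per library.

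Named genes were the clock list, the 10 greatest rises and 10 greatest falls among genes averaging 5 FPKM or more in a group, also after GC and length correction and without opposite-strand overlap, the 4 of each direction without those conditions, up to 4 passing members of each of 24 lists, and the genes with the smallest rhythm p (8 for the difference, 6 per group). Predicted genes were not named, and some genes the rule names are not reported here. Members and lists were chosen with earlier results of these data known. The fit was tested on simulated data.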

Additional observations from a re-analysis of the deposited data

Results flagged for a closer look

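In 11 of the 127 genes examined 1 CryDKO-labelled library stood apart from the other 7 (Dixon's test at 95%, which flags about 1 group in 20 by chance). The library at ZT21 did so for Saa1 at 2161 FPKM (next value 232), Saa2 at 1134 (76.1), Mt2 at 115.1 (17.9) and Orm2 at 115.1 (21.1), all of them genes of the acute phase or metal response at their highest, and for Pcp4l1 at 12.6 (33.9) and Lect2 at 98.5 (136), at their lowest. Elsewhere Nfil3 was highest at ZT15 with 16.4 FPKM (12.2), Cdkn1a at ZT12 with 1.28 (0.70), Tbx3 at ZT18 with 7.05 (4.90) and Cfd at ZT6 with 1.71 (0.33), and mt-Tp was lowest at ZT6 with 0.59 (3.80). With 1 library per time, a time of day and a single library cannot be told apart.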

How the results depend on the processing

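Of the 4717 recomputed level differences of named genes, 4387 kept direction and side of the threshold, 317 lost the call, 9 gained one and 4 turned: Clock to -0.333, Btrc to -0.197 and Jund to 0.047 with the GC and length correction, and Egr1 to -0.067 with shared times only. The losses were uneven. Of 122 named calls 27 were kept with shared times only and 97 without the CryDKO-labelled libraries at ZT12, 18 and 21. After GC and length correction 99 of 120 were kept. Each other setting kept at least 108 of 122, or all of the 84 or 40 examined. Counts of genes past the threshold moved too. With overlapping genes left out (6161 tested) and with voom (6289 tested), fewer genes were tested than the 9976 of the main fit. Their lower counts of any kind are thus not like measures of the main counts and do not by themselves show a change. The level count (4994) was 3077 with overlapping genes left out (6161 tested), 214 at the 2 shared times (2 against 4 libraries), 3064 with voom (6289 tested) and 3014 without the CryDKO-labelled libraries at ZT12, 18 and 21; genes that rose (2254) were 1445, 128 and, without those 3, 1408; genes that fell (2740) were 1632, 86, 1557 and 1606, and 1778 with the same sum of FPKM. The rhythm difference (14) became 61 with GC and length correction, 137 with all 67 libraries, 22 with the filter over all 67, 2574 with library weights, 28 with median-of-ratios scaling, 7 with overlapping genes left out, 9 with voom, 0 without those 3 libraries, 8 without the 4 WT libraries of low Moxd1 and 729 without both WT libraries at ZT16. WT rhythm (936) was 1505 with replicate 1 only, 46 with replicate 2 only, 2995 with all 67 libraries, 4511 with weights, 531 with overlapping genes left out, 457 with voom, 364 without the 3 CryDKO-labelled libraries, 193 without the 4 WT libraries and 3827 without both at ZT16. CryDKO rhythm (0) was 4, 2 with the filter over all 67, 773 with weights, 3 with no filter and 1 without the 3 libraries. Leaving out 1 library at a time gave 4375 to 5815 level calls (2022 to 2602 up, 2353 to 3213 down), 11 to 139 rhythm differences, 373 to 3583 WT rhythms and 0 to 1 CryDKO rhythms. The 3 alternatives without sets of libraries were chosen after seeing the data. The cause was not tested for any of these. No paired analysis was possible because all CryDKO-labelled libraries carry replicate number 1, so that the groups share fewer than 2 numbers. At a depth of 10.8 to 28.4 M reads, genes under 1 FPKM were not tested.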
